A study of Mus musculus with 4 samples.

Results

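Accessible chromatin far from any protein-coding gene was examined in the mouse aorta, as 3415 regions that lie more than 100 kb from every protein-coding transcription start site (TSS). The members are peaks of the 2 long ATAC-seq peak lists of the study, on chromosomes 1 to 19, whose nearer edge passes that distance in GENCODE vM21 and of whose bases at most 50% are repeat-masked (written in lower case) in the mm10 genome. Peaks that overlapped were merged, and the list or lists that hold each region were kept. The 3415 far regions are 8.67% of the 39368 regions that the same lists give at any distance, of which 19776 lie 3 to 100 kb from a TSS (called nearer distal below) and 16208 within 3 kb (called promoter).

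ATAC-seq marks open chromatin by the sites at which the transposase Tn5 can insert adapters. Nuclei came from aortic tissue of Col3a1+/+ (control) mice and of Col3a1G938D/+ mice, which carry a glycine substitution in type III collagen and model vascular Ehlers-Danlos syndrome (VEDS). The mice were on a C57BL/6J background and 60 days old, no drug is given for any library, and the barcodes of the single-cell kit were analysed in aggregate. The names of the libraries each carry a pair of animal numbers, which would be tissue of 2 mice, but pooling is not described in the sources used here. One library was made for each genotype and sex, and the long lists are those of the control female and the VEDS male library, so between them genotype and sex cannot be told apart and no difference between these lists was tested.

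Enhancers are stretches of DNA that bind transcription factors and raise transcription of genes that can lie far away along the chromosome, which they reach by looping. Genes of development, such as those of transcription factors and secreted signals, often stand beside long gene-poor sequence that holds many such elements, while other gene deserts hold few. CTCF, together with cohesin, anchors loops and the borders of chromatin domains. AP-1 (FOS and JUN dimers), TEAD, MEF2 and SRF are factors with known roles at enhancers of smooth muscle and other mesenchymal cells.

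The windows below are 300 bp of the reference genome (mm10, plus strand) centred on a summit, the position of a peak with the most fragments. They are shown because each had the highest mean rank by −log10 q over both long lists among far regions with a given consensus sequence and no 31-base word found more than once in the assembled chromosomes. In the first 2 windows the capitals mark copies of the AP-1 consensus TGACTCA, on either strand, and of the TEAD consensus CATTCCA or CATTCCT. Capitals mark the MEF2 consensus in the window between Sec61b and Nr4a3, the steroid receptor element (GNACA and TGTNC with 3 bases between) in that between Tnc and Pappa, and the CTCF consensus in that between Uaca and Tle3.
Akr1e1 to Klf6, chr13:4771495-4771794: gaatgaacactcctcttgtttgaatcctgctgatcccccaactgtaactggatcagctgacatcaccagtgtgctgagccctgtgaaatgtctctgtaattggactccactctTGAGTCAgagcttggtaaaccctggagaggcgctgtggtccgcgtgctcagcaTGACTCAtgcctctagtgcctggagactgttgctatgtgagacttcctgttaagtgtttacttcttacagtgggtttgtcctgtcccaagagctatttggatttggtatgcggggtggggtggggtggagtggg
Camta1 intron, chr4:151339547-151339846: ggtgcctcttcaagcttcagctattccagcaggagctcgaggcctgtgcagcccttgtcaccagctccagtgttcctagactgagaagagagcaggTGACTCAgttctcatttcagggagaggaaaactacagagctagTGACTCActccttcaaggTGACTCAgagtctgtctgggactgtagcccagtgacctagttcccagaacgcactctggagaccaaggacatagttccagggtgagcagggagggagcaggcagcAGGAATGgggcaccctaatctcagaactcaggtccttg
Sec61b to Nr4a3, chr4:47603854-47604153: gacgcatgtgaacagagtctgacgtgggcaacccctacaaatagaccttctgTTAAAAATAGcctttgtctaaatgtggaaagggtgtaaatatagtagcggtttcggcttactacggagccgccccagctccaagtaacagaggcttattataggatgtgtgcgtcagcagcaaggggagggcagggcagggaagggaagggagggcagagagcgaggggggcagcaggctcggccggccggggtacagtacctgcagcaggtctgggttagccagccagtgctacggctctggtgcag
Tnc to Pappa, chr4:64594987-64595286: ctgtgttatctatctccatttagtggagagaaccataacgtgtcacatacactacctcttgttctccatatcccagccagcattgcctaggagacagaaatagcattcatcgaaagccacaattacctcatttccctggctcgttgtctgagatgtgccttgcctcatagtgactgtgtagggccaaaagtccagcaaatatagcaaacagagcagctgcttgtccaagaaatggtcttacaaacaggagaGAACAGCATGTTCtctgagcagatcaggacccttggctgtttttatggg
Uaca to Tle3, chr9:61158337-61158636: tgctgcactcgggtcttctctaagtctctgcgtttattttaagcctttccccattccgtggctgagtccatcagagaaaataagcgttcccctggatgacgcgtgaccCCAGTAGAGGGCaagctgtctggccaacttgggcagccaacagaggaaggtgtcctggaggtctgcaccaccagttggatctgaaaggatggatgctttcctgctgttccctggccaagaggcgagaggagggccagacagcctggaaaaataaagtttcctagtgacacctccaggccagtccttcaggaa

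The first of these lies over the start of the long noncoding gene Gm5444 and held 2 AP-1 copies, with 41 fragments at the summit in the control female library and 87 in that of the VEDS male. The second, in an intron of Camta1 and 199940 bp from its nearest TSS, held 3 AP-1 copies and 1 TEAD copy, with 33 and 84 fragments. The MEF2 window had 29 and 64 fragments, the steroid receptor window 26 and 63, and the CTCF window 24 and 56. The windows beside Klf6, in Camta1 and beside Tle3 were chosen for the lack of repeated words after their values had been seen.

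The regions that rank highest of all were of another kind, and 3 of them are shown for that reason. Capitals mark the 275 bases that lie in 31-base words of the mouse mitochondrial genome in the window between Flrt2 and Galc, the CTCF consensus in that beside Gm31371, and AP-1 and TEAD in that before Gdi2.
Flrt2 to Galc, chr12:97061404-97061703: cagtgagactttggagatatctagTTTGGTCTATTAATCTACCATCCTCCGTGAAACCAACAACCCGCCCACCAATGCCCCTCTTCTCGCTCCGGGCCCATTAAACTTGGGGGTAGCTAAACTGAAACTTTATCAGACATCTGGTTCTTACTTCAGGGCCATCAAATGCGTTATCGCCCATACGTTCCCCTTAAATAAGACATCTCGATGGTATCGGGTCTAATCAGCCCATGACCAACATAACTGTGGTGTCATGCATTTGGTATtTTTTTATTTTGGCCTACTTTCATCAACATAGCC
Gm31371 to Gm15319, chr8:20122153-20122452: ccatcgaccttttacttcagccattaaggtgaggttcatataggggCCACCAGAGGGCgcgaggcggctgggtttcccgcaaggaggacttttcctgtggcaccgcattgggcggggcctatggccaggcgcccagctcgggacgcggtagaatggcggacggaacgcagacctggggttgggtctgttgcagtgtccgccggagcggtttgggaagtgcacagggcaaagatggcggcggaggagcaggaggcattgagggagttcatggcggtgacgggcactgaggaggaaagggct
before Gdi2, chr13:3372992-3373291: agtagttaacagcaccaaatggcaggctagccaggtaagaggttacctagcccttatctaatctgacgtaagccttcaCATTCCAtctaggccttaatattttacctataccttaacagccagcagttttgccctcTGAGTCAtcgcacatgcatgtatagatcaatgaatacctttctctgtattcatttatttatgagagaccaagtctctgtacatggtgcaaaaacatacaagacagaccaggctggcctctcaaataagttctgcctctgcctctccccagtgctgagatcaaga

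The region between Flrt2 and Galc, 1154742 bp from the nearest coding TSS, had rank 31 among the peaks of the VEDS male list and rank 35 in the control female list, with a −log10 q of 307 and 130. It had 110 fragments at its summit in the control female library, and its number in the VEDS male library could not be recovered. Of the words of its window 79.6% are in the mitochondrial genome, and 53.7% occur more than once in the nuclear chromosomes. The region between Gm31371 and Gm15319 lies over the pseudogene Gm21769, had 85 and 193 fragments at its summit, and 81.9% of its words occur more than once. Repeated words also made up 57.0% of the window between Gm8797 and 1700008P02Rik (92 fragments in the control female library) and 58.5% of that in an intron of Gphn, the gene of the synaptic scaffold gephyrin (68 and 89 fragments). These 4 regions had the 4 highest mean ranks of all far regions that both lists hold. In the region near the chromosome end before Gdi2, which had 37 and 135 fragments, the share was 14.8%, and in the one before Samd9l, with 46 and 58, it was 35.6%. Reads from copies of such a sequence elsewhere can be placed at these sites, and their part in these values was not tested.

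Such windows were few among the members. At least 50% of the words occurred more than once in 99 of 3415 far windows (2.90%, 95% Wilson interval 2.39 to 3.52), against 2.83% (2.60 to 3.07) of nearer distal and 1.44% (1.27 to 1.64) of promoter windows, and 88.6% of far windows had no repeated word. Mitochondrial words were found in 4 far windows (0.117%, 0.0456 to 0.301), of which 3 are held by both lists, and in 7 nearer distal windows (0.0354%, 0.0171 to 0.0731). Among far regions of both lists 1.85% had a window of mostly repeated words, and among those of the VEDS male list alone 3.66%. All intervals given here cover counting error only.

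The VEDS male list has 41444 peaks, of which 3296 on chromosomes 1 to 19 are far and mostly unmasked (8.14% of the autosomal peaks), and the control female list 21176, of which 1490 are (7.21%). The control male and VEDS female lists have 1236 and 504 peaks, with 23 and 24 such far peaks. The median summit of a far peak rested on 16 fragments in the VEDS male, 11 in the control female and 6 in each short library, so that the lack of a peak does not show closed chromatin. Of 6 smooth muscle marker genes, all had a peak within 1 kb of a TSS in both long lists (Myh11, Acta2, Tagln, Cnn1, Lmod1 and Smtn), and no marker of any cell type had one in the short lists. Among the other marker lists, the long lists had 2 of 5 fibroblast genes each (Pdgfra and Col1a1), 0 of 5 endothelial genes in the control female and 3 of 5 in the VEDS male (Kdr, Tie1 and Erg), 0 of 4 immune genes and 1 of 4 fat genes (Fabp4). Striated muscle and neural markers had no peak in the control female list and 1 of 4 each in the VEDS male list (Ckm and Snap25).

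Far sequence was sparse in open chromatin, and more so the farther it lay from a gene. Sequence more than 100 kb from every coding TSS makes up 849 Mb, or 35.4% of chromosomes 1 to 19, and held 4.02 regions per Mb, against 23.2 per Mb in the remaining 1547 Mb. The density was 146 per Mb within 1 kb of a TSS, 12.8 per Mb at 30 to 100 kb, 7.27 per Mb at 100 to 200 kb, 3.52 per Mb at 200 to 500 kb and 0.771 per Mb beyond 500 kb. Counted per Mb of unmasked sequence the last 3 values were 11, 5.56 and 1.32, in the same order. Beyond 500 kb there were 179 regions and beyond 1 Mb 22.

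**Figure D1:**
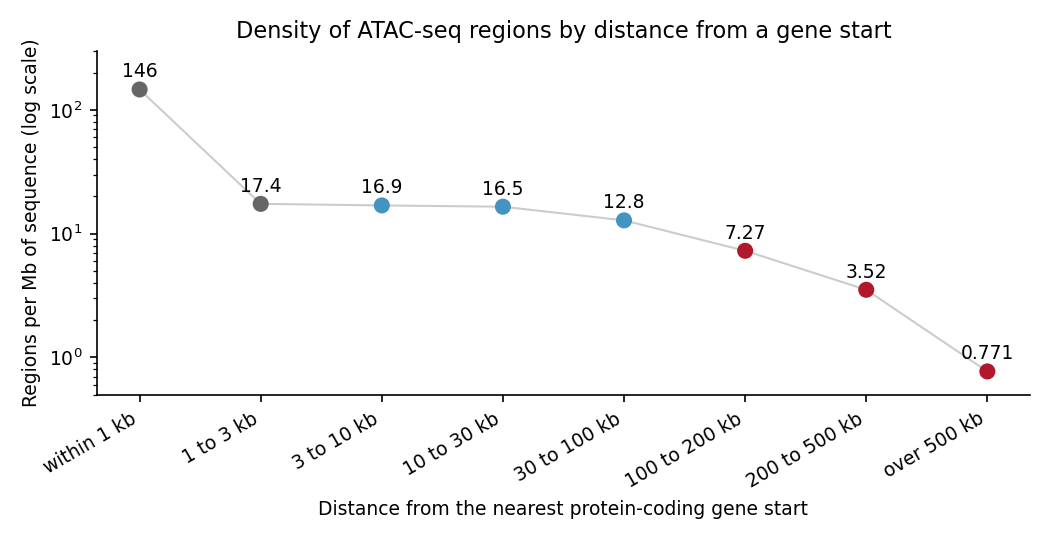
Regions per Mb of sequence (log scale) against the distance from the nearest protein-coding gene start, for the merged regions of both long lists. Grey points are promoter bins, blue points nearer distal bins and red points far bins, and the density falls from 146 per Mb within 1 kb to 0.771 per Mb beyond 500 kb.

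The members just inside the 100-kb limit lay 100006, 100010 and 100020 bp from a TSS, and the regions just outside it 99980, 99989 and 99998 bp. The median distance of a far region was 170497 bp, and 2064 of them (60.4%) lay at 100 to 200 kb, where 33.4% of the far bases are. The far regions that both lists hold and that lie farthest from a TSS were weak. The farthest, between Sel1l and Flrt2 and 1869614 bp from Sel1l, had 8 fragments in the control female library and 22 in that of the VEDS male. The next lay 1326205 bp from Zeb2, a repressor of epithelial genes, and 890 bp from the start of the long noncoding gene Gm13470, with 8 and 20 fragments. The last, 1224252 bp from Cited2, had 8 and 12 fragments and carried AP-1.

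Most far regions lay between genes. Of the 3415, 1993 (58.4%, 56.7 to 60.0) overlapped no annotated gene, 769 (22.5%) lay in an intron of a protein-coding gene, 23 (0.673%) touched a coding gene's exon, 484 (14.2%) lay in an intron and 146 (4.28%) on an exon of another gene. Nearer distal regions lay inside a protein-coding gene in 55.5% (54.8 to 56.2) of cases and far regions in 23.2% (21.8 to 24.6). Only long genes can hold a member of this kind, and 15.6% of far sequence lies in one, with 5.98 far regions per Mb there and 3.66 per Mb outside coding genes. The genes with the most were Gm20388 with 24 (a model 4435 kb long that spans many other genes), Rad51b with 19, Rbms3 and Ror1 with 16 each, and Fndc3b and Thsd4 with 14 each. Ror1 encodes a receptor for WNT5A, Rbms3 an RNA-binding protein and Thsd4 a protein of microfibrils.

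Some far regions lay at the start of another kind of gene. There were 219 (6.41%, 5.64 to 7.28) within 1 kb of the start of a gene that is not protein-coding, close to the 5.84% (5.52 to 6.17) of nearer distal regions. Of these regions, 125 lay at starts of long intergenic noncoding RNAs, 25 of other processed transcripts, 22 of processed pseudogenes and 18 of antisense RNAs. Together the 219 regions lay at starts of 183 genes. The noncoding gene 3110039I08Rik, between Ubash3b and Sorl1, had 9 far regions at its starts, of which 4 are held by both lists. Starts of known regulatory RNAs were among them, named here after their values were seen. Of microRNA genes, Mir30a had a region of both lists at 454 bp and Mir148a one of the VEDS male list alone at 873 bp. Kcnq1ot1, the antisense transcript that silences genes of the Kcnq1 imprinted domain, had a peak over its start in both lists. When starts of genes of every biotype were required to lie more than 100 kb away, 520 regions were left.

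The far regions were spread unevenly over stretches of far sequence. A stretch here is an unbroken run of sequence more than 100 kb from every coding TSS, named by the coding genes on either side. There were 2116, and 896 of them (42.3%) held a far region. Stretches that held one had a median length of 295 kb and empty ones 119 kb, and the part of length was not tested. The 86 stretches with 10 or more regions held 1212 of the members (35.5%) in 6.56% of the far bases. At the other end, 102 of 221 stretches longer than 1 Mb held none. The 5 longest empty stretches ran from 3.20 to 3.81 Mb and lay between Slc39a10 and Tmeff2, D3Ertd751e and Pcdh10, Stim2 and Pcdh7, Tenm2 and Mat2b, and Brinp3 and Pla2g4a.

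The stretch between Rad51b and Zfp36l1 held the most, 37 regions in 0.586 Mb, of which 15 are in both lists and 22 in the VEDS male list alone. Zfp36l1 encodes a protein that speeds the decay of messenger RNAs with AU-rich elements. The stretch between Foxo1, the forkhead factor that insulin signalling keeps out of the nucleus, and Cog6 held 27 regions, 13 of them in both lists. The one between Ubash3b and Sorl1 also held 27, with 8 in both lists, and the one between Agtr1b, an angiotensin II receptor gene, and Tbl1xr1 held 23, with 15 in both. Between Mpdz and Nfib, a transcription factor of the nuclear factor I family, there were 23, with 8 in both.

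Of the other 5 stretches with the most members, 1500009L16Rik to Nuak1 held 22, Serp2 to Lacc1 21, Nmbr to Cited2 20, Wwox to Maf 20 and Myc to Gsdmc 19. Gm5148 to Ankrd50 and Klf14 to Mkln1 also held 19 and tie for the last place of the 10, at 35.8 and 79.3 regions per Mb. Serp2 to Lacc1 had the highest density of the 10 as listed, at 75.2 regions per Mb, and 15 of its 21 regions are in both lists. Nmbr to Cited2 was the least dense, at 7.24 per Mb over 2.76 Mb, and 7 of its 20 are in both. Cited2 encodes a coactivator that binds CBP and p300. The 10 stretches as listed held 239 far regions (7.0%) in 1.18% of far sequence. Among all stretches with 10 or more members, the densest lay between Irf2bp2 and Tomm20, with 16 regions in 0.152 Mb (105 per Mb), 10 of them in both lists.

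**Figure D2:**
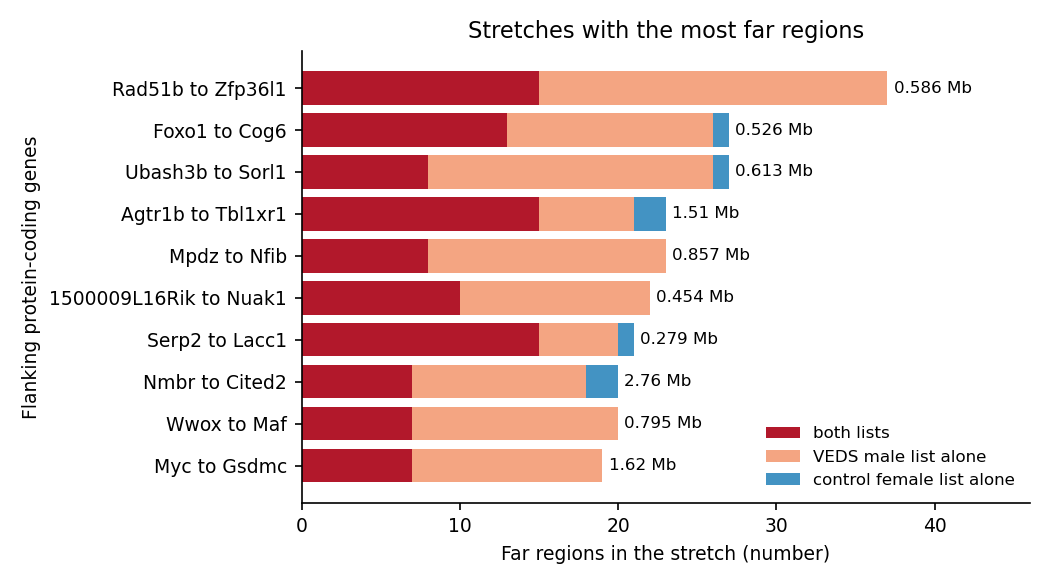
Number of far regions in each of the 10 stretches that hold the most, named by the protein-coding genes on either side, with the length of the stretch in Mb at the end of the bar. Colours give the list or lists that hold the regions, and the bars run from 19 regions (Myc to Gsdmc, which ties with 2 stretches not drawn) to 37 (Rad51b to Zfp36l1).

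Within stretches some regions stood close together, and whether they did so beyond the density of their stretch was not tested. With neighbours within 12500 bp counted as one cluster, 1656 far regions (48.5%) stood alone and 929 (27.2%) were in 242 clusters of 3 or more. The clusters with the most members had 9 each. One spans 44.4 kb between Slc8a1 and Pkdcc, with 6 of its regions in both lists and up to 78 fragments at a summit of the VEDS male list. The other spans 55 kb between Wdr11 and Fgfr2, a fibroblast growth factor receptor gene, with 5 in both lists. A cluster of 8 lies 109459 bp from Smad7, the inhibitory SMAD of TGF-β signalling, in introns of Ctif, with 5 regions in both lists, and a cluster of 7 lies between Plxnc1 and Cradd. A further cluster of 8, between Esp15 and Esp38, spans only 5.73 kb and reached 214 fragments at a summit. Its regions lie at the starts of Gm26917, Gm42418, AY036118 and CT010467.1, the last annotated as ribosomal RNA, and this locus holds in the assembly a ribosomal RNA gene that is repeated in the mouse genome.

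The far regions beside genes of 5 lists are given as counts and densities, and differences between lists were not tested. The stretches differ in length, with a mean of 0.274 Mb for the contractile, 0.459 Mb for the secreted signal, 0.481 Mb for the transcription factor, 0.630 Mb for the matrix and 0.968 Mb for the neuronal list. Density fell with distance from a gene (above), and the part of stretch length in the densities of the lists was not tested. Of the 61 transcription factor genes of cardiovascular and limb development that stand beside a stretch, 49 (80.3%) had a far region in one, with 7.71 per Mb in 46.2 Mb. Of all 3024 protein-coding genes beside a stretch, 1511 had one, with 4.02 per Mb. The 5 factors with the most were Nfib with 23, Maf with 22, Osr1 with 19, and Id2 and Klf4 with 14 each, as had Sox4 and Sox9. Klf4 encodes a factor known for repressing contractile genes in smooth muscle, and its 14 regions stand in 1.01 Mb, with 4 in both lists.

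Of 38 genes beside a stretch on the list of secreted signals, 24 (63.2%) had a far region, with 6.27 per Mb. The list also holds genes of membrane-bound ligands, such as Efna5. Cxcl12, a chemokine, had 16, and Efna5 and the axon guidance gene Ntn1 had 15 each. Inhba, which encodes the activin A subunit, had 14, and 13 each stood beside Ccn2 (connective tissue growth factor) and Tgfb2. The stretches beside Ccn2 and Ntn1 were dense, at 75.6 and 68.1 regions per Mb, and the one beside Tgfb2, a gene whose loss of function causes an aortic aneurysm syndrome in humans, had 39.1 per Mb, with 6 of 13 in both lists.

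Matrix and adhesion genes stood beside far regions at the density of all far sequence, 4.02 per Mb, with 22 of 35 genes (62.9%) having one. Dcn, the gene of the collagen-binding proteoglycan decorin, had 15 in 0.662 Mb, of which 9 are in both lists. The aggrecan-cleaving protease gene Adamts5 had 13, Cdh13 12, the fibronectin gene Fn1 10 and Ncam1 9. Of the contractile and calcium-handling genes, 15 of 53 (28.3%) stood beside a stretch, the lowest share of the 5 lists. Over all protein-coding genes this share was 14.6%. The contractile stretches had 12.4 regions per Mb, and 12 of the 15 genes had a far region. These were led by the phosphodiesterase gene Pde3a with 19 and the large-conductance potassium channel gene Kcnma1 with 12, 8 of them in both lists for either gene. The phospholipase C genes Plcb1 and Plcb4 had 11 and 9, the 9 being those of the stretch between both genes and counted for each, and Prkg1, the cyclic GMP-dependent kinase of vascular relaxation, had 6.

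Neuronal genes, listed for comparison, stood beside far sequence most often, 45 of 50, and their 106 Mb had 0.644 regions per Mb. The 5 with the most were Pcdh7 with 8, Grin2a with 7, Gria2 with 6, Pcdh17 with 5 and Slitrk1 with 4, which equals Syt1. The lists share stretches with each other where their genes are neighbours, and they were not tested against other lists.

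Far regions were held by both long lists in 1355 cases (39.7%, 38.0 to 41.3), by the VEDS male list alone in 1938 (56.7%) and by the control female list alone in 122 (3.57%). Over all regions at any distance, the shares were 47.3% held by both, 50.4% held by the VEDS male list alone and 2.32% held by the control female list alone, so the longer list held most single-list regions at every distance. The lists differ in length, and 92.1% of the far peaks of the control female list were overlapped by the VEDS male list, as were 93.1% of its nearer distal peaks (difference −0.938 percentage points, 95% Newcombe interval −2.51 to 0.449). In the other direction 41.5% of the far and 38.0% of the nearer distal peaks of the VEDS male list were overlapped (difference 3.50 points, 1.69 to 5.32).

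Whether a far peak was found again depended on its rank. Each list was split by −log10 q into 5 rank classes of equal size, class 1 being the highest. In class 1 of the VEDS male list, 97.2% of 320 far peaks were overlapped by the control female list, and in class 5 8.39% of 775. In class 2 far peaks were overlapped in 79.0% and nearer distal peaks in 72.2% of cases (difference 6.78 points, 3.09 to 10.2), and in class 3 in 44.2% and 37.4% (6.79 points, 3.0 to 10.6). In class 4 the difference was 3.53 points (0.680 to 6.61), and in classes 1 and 5 the interval of the difference included 0 (0.0431 points, −2.49 to 1.62, and 1.33 points, −0.587 to 3.61). In class 5 of the control female list the far peaks were overlapped less often than the nearer distal ones, in 75.9% and 80.7% of cases (−4.80 points, −9.72 to −0.350).

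**Figure D3:**
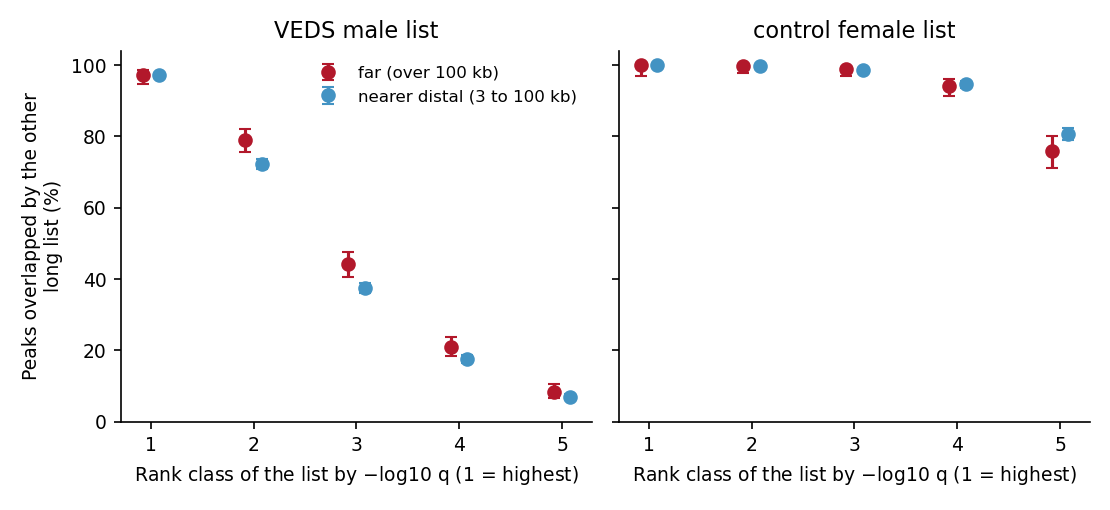
Share of peaks of one long list that a peak of the other overlaps (vertical axis, percent), by rank class of the list by −log10 q (horizontal axis), for far (red) and nearer distal (blue) peaks, with 95% Wilson intervals. In the VEDS male list the far share falls from 97.2% in the highest to 8.39% in the lowest class and lies above the nearer distal share in classes 2 to 4.

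Regions held by both lists were stronger than those held by one. In the VEDS male library the median far summit had 26 fragments where both lists hold the region (10th to 90th percentile 14 to 53) and 13 where the VEDS male list alone does (9 to 22). In the control female library the medians were 11 (7 to 22) and, where that list alone holds the region, 7 (5 to 10).

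At shared far regions the ratio of summit fragments between the libraries was slightly under that of all shared regions. Over all 18622 shared regions with recovered fragment numbers, the VEDS male library had a median of 2.47 times the fragments of the control female library, and over the 1354 far ones 2.25 times. After division by 2.47 the far regions had a median of 0.912, with 0.588 to 1.38 between the 10th and 90th percentiles, and the nearer distal regions a median of 0.982. These medians differed with the sum of the summits of both libraries. At up to 25 fragments they were 0.721 (far) and 0.753 (nearer distal), and at 25 to 50 0.946 and 0.970. At 50 to 100 they were 1.01 and 1.07, and above 100 1.03 and 1.02. The part of depth in the far median was not tested. Of the far regions 9 (0.665%) were above 2, as were 0.677% of all shared regions, and 56 (4.14%) were below 0.5, against 1.36% of all and 2.16% of nearer distal ones. The share below 0.5 fell with the sum of the summits of both libraries. It was 11.4% of 255 far and 8.65% of 971 nearer distal regions at up to 25 fragments. At 25 to 50 fragments it was 3.58% of 727 far and 2.0% of 3620 nearer distal regions. At 50 to 100 it was 0.301% of 332 and 0.0423% of 2363, which are too few cases to compare. No interval was computed for these shares, and a difference between far and nearer distal regions within a class was not tested. With 1 library a side, these values have no replicate check.

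**Figure D4:**
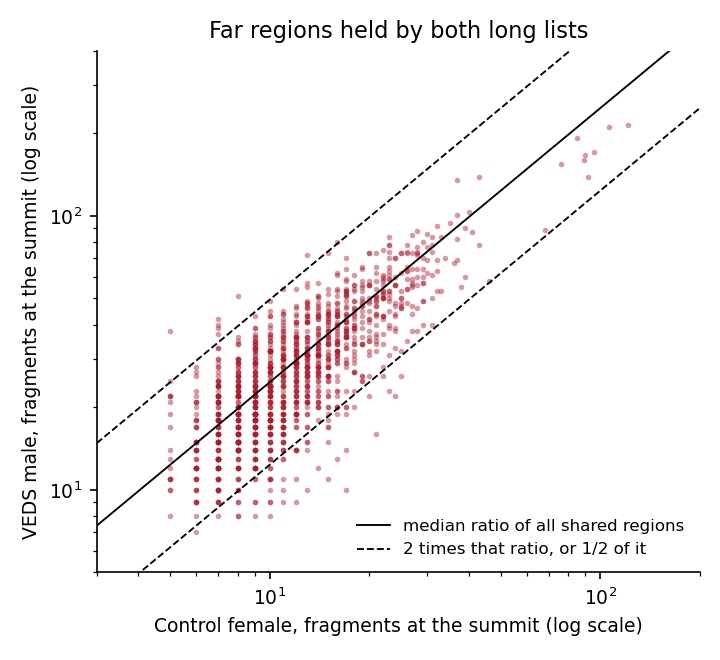
Fragments at the summit in the control female (horizontal axis) and VEDS male (vertical axis) library for the 1354 far regions that both lists hold, both axes logarithmic. The solid line is the median ratio of all shared regions (2.47) and the dashed lines are 2 times and 0.5 times that ratio, and 9 points lie above the upper and 56 below the lower dashed line.

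Among far regions with more than 50 fragments in all, the ratio was highest at 127503 bp from Apoh, with 8 fragments in the control female library and 51 in that of the VEDS male (2.58 after division). Next was a region over the start of the noncoding gene BC002059, with 13 and 72 (2.25), where 22.6% of the words of the window are repeated, and then one near Inhbb, with 16 and 80 (2.03). It was lowest 728932 bp from Cited2, with 25 and 26 fragments (0.422). Next lowest were the regions before Samd9l (0.511) and near Cog6, with 25 and 32 (0.519). These regions were picked by their ratios, which describe these libraries and no more.

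The libraries of the short lists, which did not choose the members, found few of them. A mostly unmasked peak of the control male list overlapped 16 far regions, one of the VEDS female list 23, and either list 38 (1.11%, 0.812 to 1.52). Over all regions the share was 1.55%, and over nearer distal regions 0.890% (0.768 to 1.03). Of the 38, 36 are held by both long lists, and 1, between Gm8797 and 1700008P02Rik, is in all 4 lists. Of the far peaks of the VEDS female list, 23 of 24 overlapped a far region of the long lists, as did 16 of 23 of the control male list. The same counts for other peaks of the short lists are not given here, so these values do not set far peaks apart. Of those that rank highest in the VEDS male list, the control male list also had the region before Gdi2 and one near the assembled start of chromosome 18, before Vmn1r238 (43 and 139 fragments in the long lists). The VEDS female list had one 134614 bp from the forkhead gene Foxl1 (40 and 103 fragments).

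The sequence of far regions had lower GC content than that of regions nearer to genes. The median GC content of the 300-bp windows was 47.0% (quartiles 43.0 to 51.3), against 50% in nearer distal and 61.3% in promoter windows and 38.7% in 300-bp tiles of far sequence outside peaks. A far window had a median of 3 CpG dinucleotides and a promoter window 20, and 6.91% of far windows had 10 or more, against 72.7% of promoter windows.

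In all, 17 consensus sequences were searched on both strands, a match being a description of the letters and not a bound site. AP-1 was in 593 far windows (17.4%, 16.1 to 18.7), in 16.1% of nearer distal and 6.17% of promoter windows and in 5.27% of the tiles of far sequence. TEAD was in 641 (18.8%, 17.5 to 20.1), against 17.2%, 8.16% and 12.1% of the same sets. MEF2 was in 364 (10.7%, 9.67 to 11.7), against 8.08%, 2.63% and 8.52%, but in 3.87% of far windows with a stricter consensus. SRF was in 130 (3.81%, 3.22 to 4.50), against 4.07%, 1.88% and 1.78%. MEF2 and TEAD were thus common in far sequence outside peaks too.

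CTCF was rarer in far than in nearer distal windows. It was in 48 of 3415 (1.41%, 1.06 to 1.86) and in 4.51% (4.23 to 4.81) of nearer distal windows, a difference of −3.10 points (−3.56 to −2.57), and in 0.0797% of the tiles. Among windows of equal GC content the difference held in 3 of 4 bands: 0.410% against 2.80% under 45% GC (−2.39 points, −2.99 to −1.67), 1.24% against 4.53% at 45 to 50% (−3.29, −4.06 to −2.28) and 2.22% against 5.52% at 50 to 55% (−3.30, −4.34 to −1.87). From 55% up it was 3.41% against 4.73% (−1.32, −2.88 to 1.09). In each long list alone the far share was lower, at 0.872% against 2.77% in the control female and 1.43% against 4.49% in the VEDS male list. By distance it was 1.55% at 100 to 200 kb, 1.28% at 200 to 500 kb and 1 of 179 windows (0.559%, 0.0987 to 3.10) beyond 500 kb.

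The other differences between far and nearer distal windows were smaller or moved with base composition. For MEF2 it was 2.58 points (1.52 to 3.73), but by GC band 0.172 (−2.16 to 2.66), 2.40 (0.478 to 4.57), −0.708 (−2.09 to 1.08) and −1.67 (−2.60 to 0.115) points from low to high GC. For AP-1 it was 1.26 points (−0.0740 to 2.67) and its interval included 0 in each band. For TEAD it was 1.54 points (0.156 to 2.98), and the interval included 0 in every band. The GC box GGGCGGG was in 3.54% of far and 6.45% of nearer distal windows (−2.91 points, −3.58 to −2.16), and the E-box CAGCTG in 19.9% and 22.9% (−3.04 points, −4.47 to −1.55), with intervals that included 0 in all 4 GC bands for the E-box and in 3 of 4 for the GC box. Differences of C/EBP (2.32 points, 1.02 to 3.69), SOX (1.56 points, 0.779 to 2.42) and the ZEB1 sequence CAGGTG (−2.72 points, −3.88 to −1.50) were not compared within GC bands, and for the remaining 8 sequences the interval included 0.

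**Figure D5:**
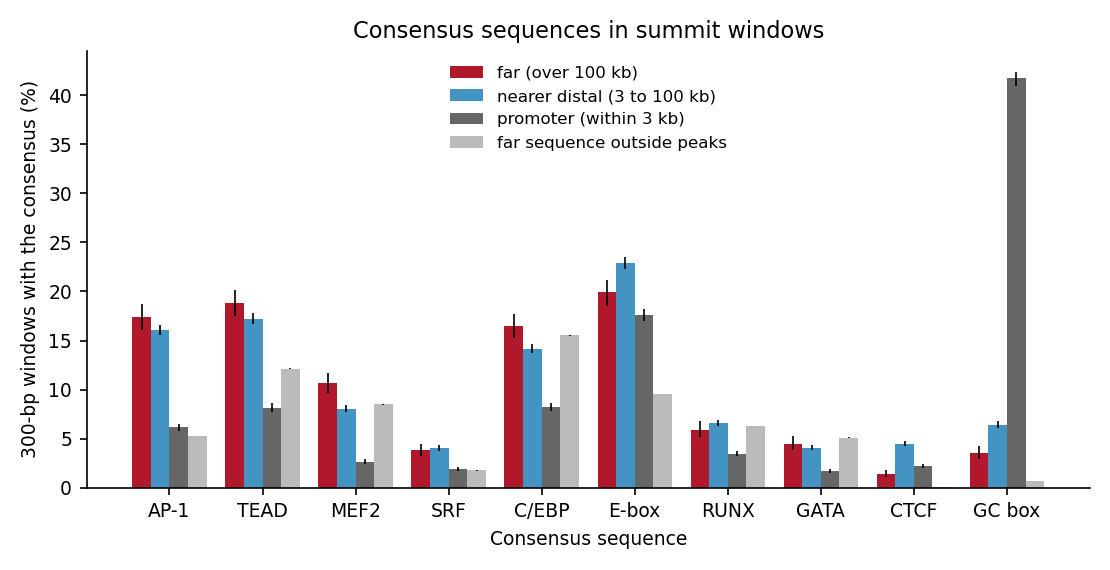
Share of 300-bp windows with a consensus sequence (vertical axis, percent) for 10 of the sequences searched, in far (red), nearer distal (blue) and promoter (dark grey) windows and in tiles of far sequence outside peaks (light grey), with 95% Wilson intervals. AP-1 is in 17.4% of far windows and 5.27% of tiles, and CTCF in 1.41% of far and 4.51% of nearer distal windows.

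Among far regions of the VEDS male list, AP-1 was less common in the lowest rank classes. It was in 21.2% of far windows in rank class 1 of the VEDS male list, in 20.2%, 20.7% and 15.7% of those in the next 3 classes and in 11.4% (9.31 to 13.8) of those in class 5. Nearer distal windows were not split by rank. By list, AP-1 was in 20.7% of far and 19.2% of nearer distal peaks of the control female list. In the VEDS male list the shares were 17.2% and 16.1%. Far regions of both lists carried it in 20.1% and those of the VEDS male list alone in 15.1% of cases (difference 5.03 points, 2.39 to 7.72), and the difference was 3.30 points (0.597 to 6.06) for TEAD and 2.05 points (−0.100 to 4.27) for MEF2. The 122 far regions of the control female list alone had a median of 7 fragments. They carried AP-1 in 22.1% (15.7 to 30.3), TEAD in 22.1% (15.7 to 30.3) and MEF2 in 8.20% (4.51 to 14.4) of cases. The ZEB1 sequence was rarer in regions of both lists (−2.49 points, −4.67 to −0.249). The steroid receptor element was in 65 far windows (1.90%) and in 0.473% of the tiles. Its difference between far and nearer distal windows was 0.407 points, with an interval that included 0 (−0.0381 to 0.946). In the control female list it was in 2.42% of far and 2.10% of nearer distal peaks. In the VEDS male list these shares were 1.85% and 1.51%. Far windows carried the element in 2.51% of cases where both lists hold the region. Where the VEDS male list alone does, the share was 1.39% (difference 1.12 points, 0.171 to 2.18). AP-1 and TEAD stood together in 112 far windows (3.28%), AP-1 and MEF2 in 50 (1.46%), and 785 (23.0%) had none of the 17 sequences.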

How the data were processed

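ATAC-seq peaks were deposited as 1 MACS2 narrowPeak list per library, called by the authors on mm10 (GRCm38). Per the study's methods, peaks in the ENCODE blacklist were dropped, cut positions were adjusted for Tn5, and reads were deduplicated within cell barcodes. MACS2 and the build are named in the submitters' processing notes and the study's methods, while the aligner and the peak threshold are not given in the sources used here. The deposited columns were an integer score, the fold enrichment at the summit (a ratio), and −log10 p and −log10 q. The score was 10 times −log10 q, the lowest −log10 q of a list was 1.30 to 1.32, and ranks here are by −log10 q.

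Fragments at a summit were recovered as the whole number that fits both the fold and −log10 p, with the pseudocount of 1 that MACS2 adds, which succeeded for 99.2 to 99.9% of the peaks of a library. Library totals are not used here, so depth is known only through these fragments.

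Peaks on chromosomes 1 to 19 were measured to protein-coding TSSs of GENCODE vM21. An overlap was 1 bp or more, and neighbours within 12500 bp formed a cluster. Consensus sequences were searched in 300-bp windows at the summit of the highest-ranked VEDS male peak of a region. Where only the control female list holds the region, the summit of its highest-ranked peak was used. Shares for one list alone used the summits of that list. Every 31-base word of a window was counted in the assembled chromosomes and the mitochondrial genome. Shares have 95% Wilson intervals and their differences Newcombe intervals. No p-value was computed: each genotype has 1 library per sex, and an exact permutation test over samples could not go below 0.333. Replicate numbers only name the libraries, which differ in sex. Procedures were tested on simulated data.

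The text names the 10 stretches with the most far regions (a tie for the last place is stated), the 5 regions of highest −log10 q in each long list, the 3 farthest regions of both lists, the 5 highest of those in a short list, the 5 genes of each list with the most far regions, the 5 clusters with the most members, and the sequences described, which were picked outside chromosome 18 and coding exons. Items named outside this rule were chosen after their values were seen, as were the densest and the longest empty stretches, the genes with the most regions in their bodies and the extremes of the fragment ratio. Members and gene lists were chosen with earlier results of these data known. Peaks on chromosomes X and Y were left out. One region that this rule names is not reported here. Python 3.11.15, numpy 2.4.6, pandas 2.3.3, scipy 1.17.1, pysam 0.24.0, samtools 1.23.1 and matplotlib 3.10.9 were used.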

Additional observations from a re-analysis of the deposited data

How the results depend on the processing

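Of 78 recomputed values 45 moved by less than their counting error or, for counts, by less than 1.5 times, and 33 by more. The number of far regions was 1496 with −log10 q of at least 10, 6833 beyond 50 kb, 1352 beyond 200 kb and 520 with starts of every biotype, and 1490 to 3296 without one of the long lists. The share held by both was 26.3% at −log10 q of at least 10, 36.2% with starts of every biotype, 37.2% with masked peaks kept and 54.6% with the VEDS male list shortened to the length of the other. AP-1 was in 19.1% and 20.4% of windows at −log10 q of at least 5 and 10, in 15.2% with masked peaks, in 15.2% of 200-bp and 20.2% of 500-bp windows, in 22.8% as TGANTCA and in 17.2 to 20.7% without one long list. MEF2 was in 7.94% of 200-bp and 14.3% of 500-bp windows and in 3.87% with a stricter consensus. CTCF was in 2.05% beyond 50 kb and in 0.872 to 1.43% without one list. The share inside a coding gene was 21.3% at −log10 q of at least 10, 31.4% beyond 50 kb, 13.5% beyond 200 kb and 21.3 to 23.0% without one list. Stretches holding a region numbered 1814 beyond 50 kb, 409 beyond 200 kb, 226 with every biotype and 595 to 879 without one list, and the density was 2.39 per Mb beyond 200 kb. A short-list peak overlapped 16 to 23 far regions without one short list, and another gene start lay within 3 kb of 11%. With repeated windows left out, an alternative chosen after seeing the data, 3316 regions remained, with 40.1% in both lists, AP-1 in 17.8%, MEF2 in 10.9%, CTCF in 1.36% and 33 in a short list. The causes were not tested beyond what each setting itself changes. No paired analysis was possible because no result comes from a test between groups. Few fragments per summit limit all comparisons of single regions.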

Other observations

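The density of far regions differed between chromosomes. It was highest on chromosome 13, with 304 far regions in 43.5 Mb of far sequence (7.0 per Mb), and on chromosome 9, with 229 in 35.0 Mb (6.55 per Mb). It was lowest on chromosome 19, with 34 in 14.1 Mb (2.41 per Mb), and on chromosome 14, with 140 in 52.7 Mb (2.65 per Mb). The share of far regions that both lists hold ran from 32.4% on chromosome 19 to 51.4% on chromosome 14.

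Other dense stretches stood beside genes that are on none of the gene lists. Between Ghsr and Fndc3b 14 far regions lay in 0.139 Mb, of which 3 are in both lists. Within Thsd4 there were 14 in 0.156 Mb (89.8 per Mb), 7 of them in both lists, and between Ror1 and Ube2u 16 in 0.183 Mb (87.4 per Mb), 4 of them in both. Beside Zfp36l2, a relative of Zfp36l1 that also promotes decay of AU-rich messenger RNAs, 12 lay in 0.140 Mb (85.7 per Mb), with 7 in both lists, and beside Klf14, a Krüppel-like factor gene, 19 in 0.240 Mb (79.3 per Mb), with 6 in both. These stretches were picked for their density after the values were seen.

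Of the far peaks of the short lists before masking was considered, 93.2% of those of the control male list and 67.6% of those of the VEDS female list were mostly repeat-masked. The share was 10.9% for the control female list and 14.5% for the VEDS male list.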
